A study of Mus musculus with 8 samples.

Results

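Heat shock proteins and their DnaJ co-chaperones were examined in neonatal cardiomyocytes (NCMs) of mice exposed in utero to filtered air (FA) or diesel exhaust (DE). The genes were chosen by name: protein-coding mouse genes whose symbol starts with Hspa, Hspb, Hspd, Hspe, Hsph, Hsp90 or Dnaj, together with Cryab. This rule found 75 of the 27179 genes in the count table, namely 14 of the HSP70/HSP110 family, 3 of the HSP90 family, the chaperonin Hspd1 with its lid Hspe1, 9 small heat shock proteins, 2 genes that are named for binding a heat shock protein (Hspbp1 and Hspbap1), 4 DNAJA, 13 DNAJB and 28 DNAJC genes. RNA-seq was performed on 8 libraries, 4 FA (replicates 2, 3, 4 and 6) and 4 DE (replicates 1, 3, 5 and 7), each from the NCMs of 1 male C57Bl/6J heart taken on the day of birth. Pregnant dams of the DE group breathed diesel exhaust from embryonic day 0.5 to 17.5 and those of the FA group breathed filtered air, and no library carries an engineered allele. Hearts were dissociated with Liberase in steps of 5 min at 37 degrees, and fibroblasts were left to attach to a plate for 1 h with Ara-C at the same temperature before the floating cells were frozen. Sample names begin with 11 after the group for all of FA and for DE replicates 1 and 7, and with 12 for DE replicates 3 and 5, and these numbers are called the prefix below. What the prefix stands for, and which pups shared a litter, is not given in the sources used here. The p-values set the difference between groups against the spread between these hearts. Exposure was given to the dams, so hearts of 1 litter would not be independent. In that case the p-values would be too small for an effect of exposure.

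Chaperones bind proteins that are not yet folded or have lost their fold. HSP70 proteins do this in cycles of ATP binding and hydrolysis, in which a DnaJ protein delivers the client and starts hydrolysis, and a nucleotide exchange factor such as an HSP110 protein resets the cycle. HSP90 takes over later folding steps of kinases and hormone receptors, the chaperonin of HSP60 and HSP10 folds proteins inside mitochondria, and small heat shock proteins hold unfolded proteins without ATP. Heart muscle is known for a high content of small heat shock proteins, among them Cryab and Hspb7, and mutations in several of these genes cause muscle disease. Heat and other stress raise part of the family through the transcription factor HSF1, while the unfolded protein response raises the chaperones of the endoplasmic reticulum (ER).

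With 17943024 to 39839737 counts per library, 14966 genes had enough counts to be tested, and 69 of the 75 chaperone genes were among them. The 10 cardiomyocyte markers summed to between 76110 and 81010 CPM (counts scaled to a common library size, with TMM factors) in FA and to between 63940 and 74350 in DE, with Myh6 and Pln called lower and Myh7 higher. The 8 fibroblast markers were present in every library in spite of the plating step, and summed to between 2008 and 3461 CPM in FA and between 3655 and 6177 CPM in DE. All 8 were higher in DE, of which edgeR called Col1a1 and Dcn (unadjusted p under 0.05 in 6, and 6 called by DESeq2). Endothelial markers were higher in 7 of 8 genes, of which edgeR called 0 (unadjusted p under 0.05 in 4, and 3 called by DESeq2), at 969.4 to 1282 CPM in FA and 1051 to 1562 CPM in DE, and the mural list had 4 of 7 higher, of which edgeR called 0 (unadjusted p under 0.05 in 2, and 1 called by DESeq2), at 1566 to 2110 CPM in FA and 1117 to 1474 in DE. Erythroid markers were higher in 6 of 6 genes with 1 called, at 759.2 to 1880 CPM in FA and 1209 to 2022 CPM in DE. Leukocyte markers, 0 of which edgeR called (unadjusted p under 0.05 in 1, and 1 called by DESeq2), summed to at most 25.2 CPM and skeletal muscle markers to at most 8.90 CPM in any library, and of all markers found a single one, in the skeletal muscle list, was at 0 throughout. In these bulk samples, fewer cells of a type and less RNA per cell cannot be told apart, and the part of other cells in the results below was not tested.

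The share of chaperone RNA was taken over all counts of each NCM library, with the RNA of other cell types included. The 75 genes took 1.18% of all counts in FA (SD 0.0670, n = 4) and 1.19% in DE (SD 0.0771, n = 4), from 1.08% in DE replicate 1 to 1.26% in DE replicate 5, so the ranges of the groups overlapped. The 10 genes with the most counts held 72.8% of the chaperone counts. By class, the HSP70/HSP110 genes took 0.347% of counts in FA and 0.344% in DE, the HSP90 genes 0.280% and 0.299%, the small heat shock proteins 0.247% and 0.244%, the chaperonin pair 0.0666% and 0.0665%, and by the group means all 45 DnaJ genes together took less than any of the first 3 classes.

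Levels of different genes were compared per exon length, as RPKM (CPM divided by the exon length in kilobases). Hsp90ab1, the constitutive cytosolic HSP90, had the highest level, at 617 ± 51.5 RPKM (SD, n = 8 libraries). Hspb7, a small heat shock protein of cardiac and skeletal muscle, followed at 488 ± 66.8 RPKM, and Cryab (alpha B-crystallin, a chaperone of desmin) at 423 ± 67.1 RPKM. The ranges of Hsp90ab1 and Hspb7 overlapped, as did those of Hspb7 and Cryab. Hspa8, the constitutive cytosolic HSP70, was at 277 ± 22.6 RPKM. With the union of all exons as length, its range of 244.1 to 318.6 RPKM was only just clear of its neighbours. Cryab began at 326.3 RPKM and Hspa9 ended at 239.5 RPKM.
The next group was made of genes whose ranges ran into one another, namely the mitochondrial Hspa9 (221 ± 19.5 RPKM) and Hspd1 (216 ± 16.7), the small heat shock protein Hspb1 (193 ± 42.8), and the ER chaperones Hspa5 (186 ± 17.5) and Hsp90b1 (139 ± 12.5). Hsp90aa1, the stress-inducible HSP90, had rank 10 at 123 ± 11.4 RPKM. The remaining genes were lower. The leading DnaJ gene was Dnaja2, which serves Hspa8 in the cytosol, at 88.7 ± 7.40 RPKM. In total 10 genes lay above 100 RPKM, 23 between 10 and 100, 31 between 1 and 10, and 11 at or below 1 RPKM. The stress-inducible pair Hspa1a and Hspa1b, at 6.12 ± 1.85 and 6.13 ± 1.71 RPKM, were far below Hspa8. The median over the 75 genes was 7.33 RPKM with the union of all exons as length and 10.57 RPKM with the longest transcript, and the 10 genes of highest level were the same by either length. Their order was not the same. By the longest transcript Cryab (560.1 RPKM) was above Hspb7 (487.7 RPKM).

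**Figure D1:**
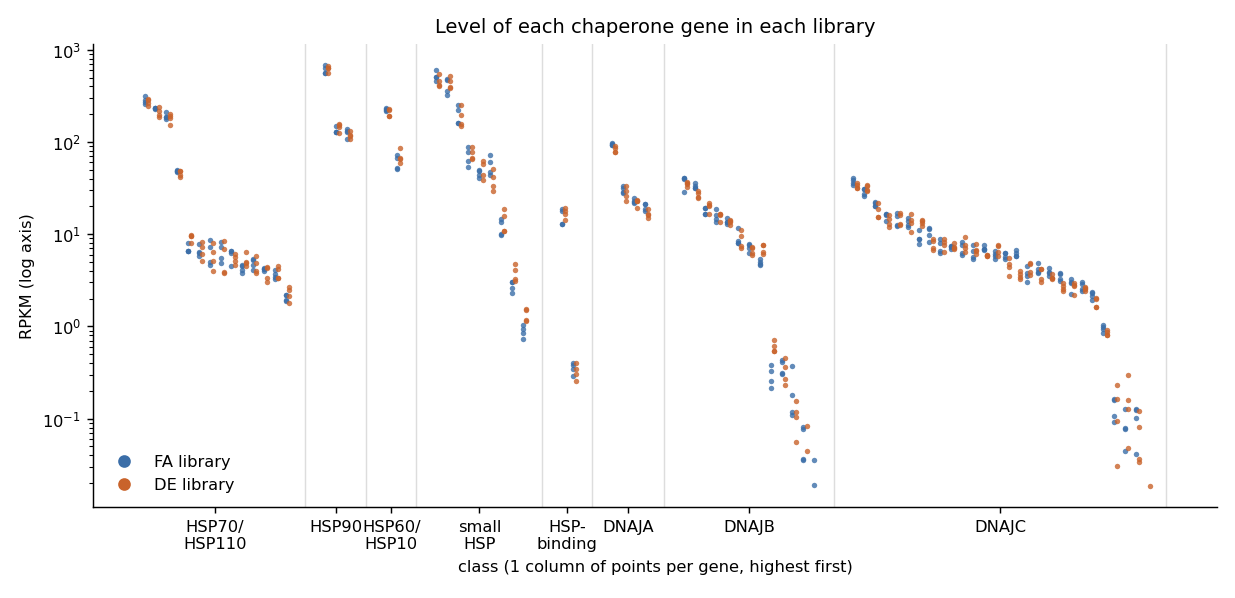
Each point is 1 library (blue FA, orange DE), with 1 column of points per gene and the genes of a class in falling order. The vertical axis is RPKM on a log scale, and 15 zero values of 3 genes are not drawn. Mean levels ran from 617 RPKM for Hsp90ab1 to under 0.1 RPKM for several DNAJB and DNAJC genes, with FA and DE points side by side for most genes.

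DE was compared with FA to ask whether prenatal exposure left a different chaperone expression at birth. Of the 69 tested genes 4 were called, by a difference of at least 25% at an FDR of 5% or below, which is 5.80% of them. The same share, 5.8%, was called among all 14966 tested genes. Dnajb5, Dnajc9 and Hspa14 were higher in DE, where 3.58% of all tested genes were called higher, and Dnajc28 was lower, where 2.22% were called lower. FA and DE library values were fully apart in 11 of the 69 genes, of which 6 were higher and 5 lower, against 14.7% of all tested genes. Under other settings, which could be fitted for 66 to 75 of the genes, the called genes were 5 with relative log expression factors (5.75% of all genes fitted), 5 with library totals (6.82%), 6 by DESeq2 (7.49%), 6 by the likelihood ratio test (10.7%), 1 with the 25% difference built into the test (0.762%), 3 without a filter (3.98%), 4 at a mean of 1 CPM or more (6.29%) and 4 among genes with a known length (6.12%). With the prefix as a term 3 were called (2.99% of all genes fitted), and within prefix 11 it was 1 (1.75%). Leaving out FA replicates 2, 3, 4 and 6 in turn gave 1, 2, 1 and 3 called genes (1.69%, 2.8%, 1.53% and 5.34% of all), and leaving out DE replicates 1, 7, 3 and 5 gave 5, 3, 1 and 1 (7.93%, 4.58%, 1.82% and 3.56%). Dnajc28 was among them each time. The unadjusted p was under 0.05 in 16 of the 69 genes, against 25.6% of all. In direction, 28 genes were higher and 41 lower, the median log2 fold change being -0.07 (0.0037 over all tested genes), but with scaling by library totals in place of TMM factors the split was 35 higher and 34 lower, and with the prefix as a term or within prefix 11 it was 18 higher and 51 lower. With single libraries left out it ran from 22 higher and 47 lower (without FA replicate 2) to 32 higher and 37 lower (without DE replicate 1). For 52 of the 69 genes (75.4%), the 95% confidence interval of the fold change lay within 1.5-fold either way. The same held for 54% of all tested genes. The interval lay within the 25% difference that a call needs for only 8 of the 69 genes, against 13.2% of all tested genes. A difference large enough for a call was therefore not excluded for most of the family. Of the 45 genes of the DnaJ classes 39 were tested, with 13 higher and 26 lower, and the other 30 genes were 15 higher and 15 lower. With the prefix as a term, most of these other 30 genes were lower as well.

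**Figure D2:**
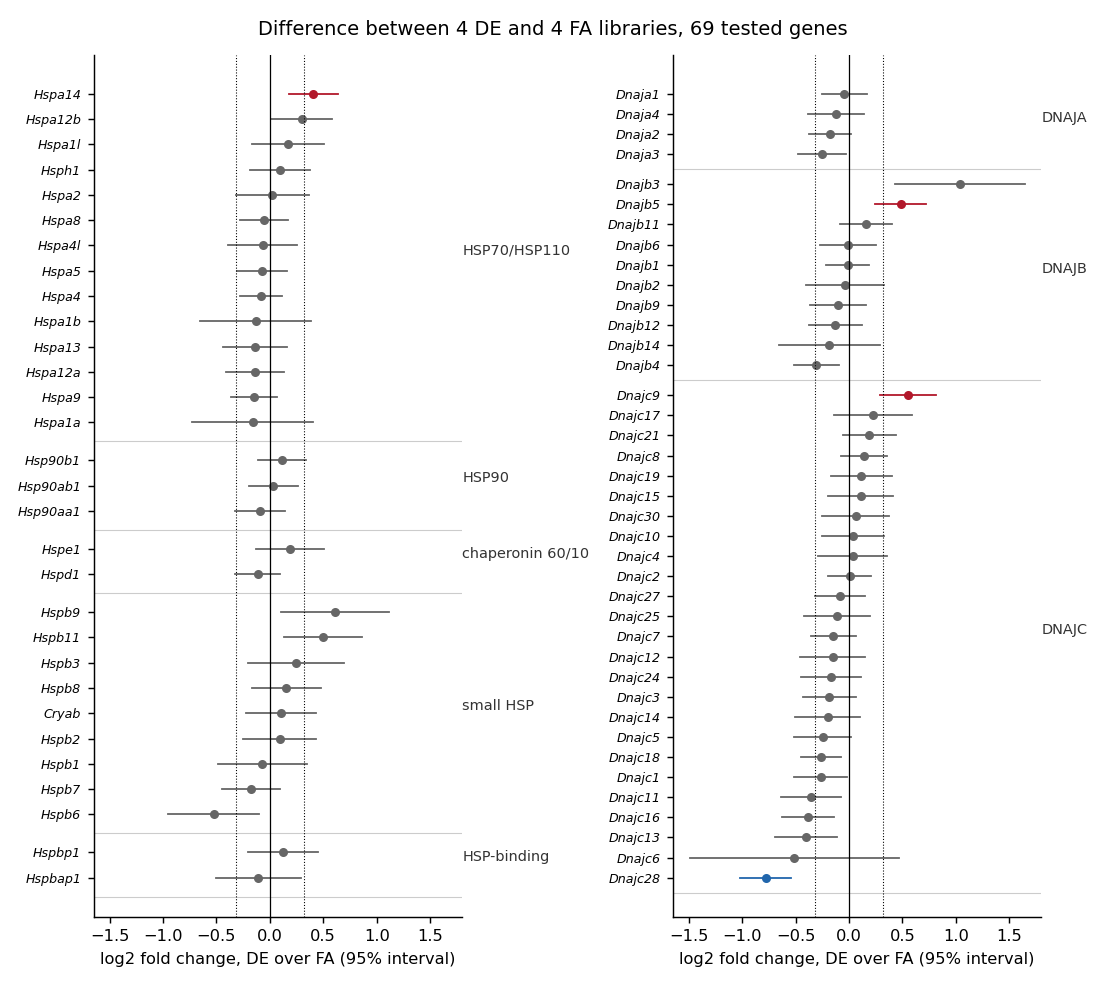
Log2 fold changes of DE over FA with 95% confidence intervals for the 69 tested genes, by class, from edgeR's quasi-likelihood fit on 4 FA and 4 DE libraries. Red marks genes called higher (Hspa14, Dnajb5, Dnajc9), blue the gene called lower (Dnajc28) and grey the other 65, and the dotted lines mark a difference of 25% either way.

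Dnajc28 had the smallest adjusted p-value of the family. It encodes a DnaJ domain protein whose role is little described and which was placed in the list of mitochondrial members, and it lies on chr16:91614257-91618999 of GRCm38.p6 without exon overlap with another annotated gene. Per-library values are given here and below in the order FA replicates 2, 3, 4 and 6 and DE replicates 1, 7, 3 and 5. Dnajc28 was at 23.9, 22.3, 20.6 and 20.7 CPM in FA and at 14.3, 13.1, 12.1 and 11.5 CPM in DE. Every DE library was below every FA library. The level fell from 21.9 ± 1.54 to 12.7 ± 1.20 CPM (mean ± SD, 4 libraries per group), for a log2 fold change of -0.78 (SE 0.11, 95% confidence interval -1.02 to -0.54, adjusted p = 0.00300 by the quasi-likelihood test of edgeR, Benjamini-Hochberg adjusted). The call was kept in all 19 alternative analyses, among them the fit on libraries of prefix 11 alone (-0.68, adjusted p = 0.0243 by edgeR), and over all of them the log2 fold change ranged from -0.84 to -0.68 with adjusted p-values of at most 0.0264.

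The 3 genes called higher have separate roles. Dnajb5 (chr4:42949867-42959425) encodes a cytosolic co-chaperone that in cardiomyocytes binds class II histone deacetylases. It was at 27.2, 32.2, 29.97 and 28.3 CPM in FA and at 36.2, 37.7, 45.4 and 44.9 CPM in DE, without overlap. Its level rose from 29.4 ± 2.17 to 41.1 ± 4.79 CPM (mean ± SD, 4 libraries per group), for a log2 fold change of 0.48 (SE 0.11, adjusted p = 0.0295 by edgeR). DE replicates 3 and 5, which carry the prefix 12, were the highest, and within prefix 11 the log2 fold change was 0.33 (adjusted p = 0.191 by edgeR). The adjusted p rose above 0.05 without FA replicate 2 (0.106), FA replicate 4 (0.0929), FA replicate 6 (0.0550), DE replicate 3 (0.0963) or DE replicate 5 (0.0675), all by edgeR.

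Dnajc9 (chr14:20384638-20388910), a chaperone of histones H3 and H4 that works with HSP70, was at 18.6, 21.1, 21.1 and 26.5 CPM in FA and at 29.2, 31.8, 34.0 and 33.3 CPM in DE. The highest FA library, replicate 6, stayed below the lowest DE library. The level rose from 21.8 ± 3.34 to 32.1 ± 2.12 CPM (mean ± SD, 4 libraries per group), for a log2 fold change of 0.56 (SE 0.12, adjusted p = 0.0249 by edgeR), with 0.48 (adjusted p = 0.128 by edgeR) within prefix 11. Its edgeR adjusted p was 0.0867 without FA replicate 2, 0.0597 without FA replicate 3, 0.0915 without FA replicate 4, 0.0792 without DE replicate 3 and 0.0520 without DE replicate 5.

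Hspa14 (chr2:3488854-3512814) is an HSP70-like protein that pairs with the DnaJ protein of Dnajc2 on ribosomes. Its libraries were at 27.0, 26.9, 27.0 and 32.3 CPM in FA and at 32.7, 39.8, 38.5 and 39.0 CPM in DE, so that FA replicate 6 and DE replicate 1 nearly met. The level rose from 28.3 ± 2.69 to 37.5 ± 3.24 CPM (mean ± SD, 4 libraries per group), for a log2 fold change of 0.41 (SE 0.11, adjusted p = 0.0463 by edgeR), and within prefix 11 by 0.35 (adjusted p = 0.212 by edgeR). This call was lost without any one of FA replicates 2, 3 and 4 (adjusted p = 0.143, 0.0919 and 0.149 by edgeR) and of DE replicates 7, 3 and 5 (adjusted p = 0.0788, 0.130 and 0.0970 by edgeR). Its partner Dnajc2 changed by 0.01 on the log2 scale (95% confidence interval -0.19 to 0.21) and was at 34.8 to 40.7 CPM in all libraries. Hspa14 shares 321 bp of exon with Gm45902 on the same strand, so that some fragments could belong to either gene.

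**Figure D3:**
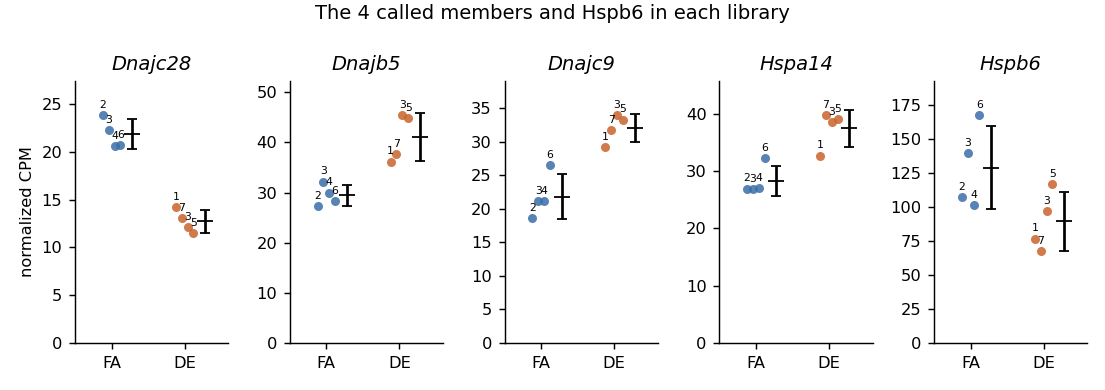
Normalized CPM in each library (points, with the replicate number above each) for the 4 called genes and for Hspb6, with the group mean and SD (black bar, n = 4) beside the points and axes that start at 0. FA and DE points did not overlap for Dnajc28, Dnajb5, Dnajc9 and Hspa14, while those of Hspb6 overlapped, with FA replicates 3 and 6 the highest of FA and DE replicates 3 and 5 the highest of DE.

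Several genes had large differences without a call by edgeR's quasi-likelihood test, and some of them were called by other tests. Among the falls, Dnajc13, an endosomal protein that recruits Hspa8 to membranes, had a log2 fold change of -0.40 (SE 0.13, adjusted p = 0.0917 by edgeR), at 136.9, 99.3, 138.9 and 117.3 CPM in FA and 101.8, 104.8, 81.4 and 84.6 CPM in DE. Dnajc13 was called by DESeq2 (adjusted p = 0.0497) and in no other of the 19 alternatives. Dnajc16 was at 24.3, 20.0, 24.7 and 21.4 CPM in FA and 19.3, 17.8, 15.8 and 16.4 CPM in DE, without overlap, and changed by -0.38 (SE 0.11, adjusted p = 0.0652 by edgeR). Dnajc16 was called in 4 of the 19 alternatives, on all 8 libraries by DESeq2 (adjusted p = 0.0265), by the likelihood ratio test of edgeR (adjusted p = 0.0356) and with the length trend removed, as given below, and also without DE replicate 1 (-0.44, adjusted p = 0.0458 by edgeR). Dnajc11, which is part of the mitochondrial cristae junction complex, changed by -0.36 (SE 0.13, adjusted p = 0.118 by edgeR). Its lowest value, 38.1 CPM, was in DE replicate 7, and it was called with the prefix as a term (-0.55, adjusted p = 0.0440 by edgeR).
Among the rises, Hspb11 and Hspa12b had log2 fold changes of 0.50 (SE 0.17, adjusted p = 0.0989) and 0.30 (SE 0.13, adjusted p = 0.177), both by edgeR. Within prefix 11 they were 0.23 (adjusted p = 0.555) and 0.14 (adjusted p = 0.650), also by edgeR. Hspb11 is an intraflagellar transport subunit, and its FA values of 4.79 to 6.25 CPM were below its DE values of 6.45 to 9.95 CPM. Hspa12b, a distant HSP70 relative known from endothelial cells, was at 13.9 to 17.1 CPM in FA and 16.7 to 23.6 CPM in DE, with the endothelial markers as given above. Dnajb3, an intronless gene, had the highest log2 fold change (1.04, SE 0.28, adjusted p = 0.0509 by edgeR) from 0.226 to 0.399 CPM in FA and 0.574 to 0.746 CPM in DE. Dnajb3 was called with relative log expression factors, with library totals and by the likelihood ratio test. It rests on 109 counts over the 8 libraries and was picked out after its values were seen.

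The list of 15 heat-inducible members held 5 higher and 10 lower genes and 0 called by edgeR (unadjusted p under 0.05 in 1, and 0 by DESeq2), where the shares of all tested genes were 5.8% called and 25.6% with an unadjusted p under 0.05. In a list of this size or smaller, 0 called genes is near the share of all genes. For the list the median log2 fold change was -0.06. The split turned to 10 higher and 5 lower with library totals and to 8 and 7 without DE replicate 1, and it was 3 and 12 within prefix 11. The interval of 13 lay within 1.5-fold either way (54% of all tested genes). Hspa1a and Hspa1b, the inducible HSP70 genes that rise most on heat, lie next to each other on chromosome 17, and 93.6% of 2701 aligned transcript bases are identical, with a longest identical run of 638 bases, so that their single counts are uncertain. Their sum was 42.0, 29.6, 28.5 and 48.6 CPM in FA and 22.4, 25.8, 38.2 and 47.5 CPM in DE. Values ran through nearly the same range in either group, with means of 37.2 CPM for FA (SD 9.78, n = 4) and 33.5 CPM for DE (SD 11.5, n = 4). DE replicates 1 and 7 were the lowest of the 8 libraries, and within prefix 11 the log2 fold change was -0.76 for Hspa1a (adjusted p = 0.0912 by edgeR) and -0.52 for Hspa1b (adjusted p = 0.312 by edgeR), against -0.16 and -0.13 over all libraries.
Hsp90aa1, Dnajb1, Hspa8, Hsph1 and Dnajb4 belong to the same list. Hsp90aa1 was at 515.6, 427.3, 502.4 and 544.9 CPM in FA and 452.5, 517.4, 424.3 and 472.7 CPM in DE, a log2 fold change of -0.09 (95% confidence interval -0.32 to 0.14). Dnajb1, the main inducible partner of HSP70, was between 41.4 and 48.2 CPM in FA and between 40.3 and 46.0 CPM in DE, a change of -0.01 (-0.21 to 0.19). For Hspa8 the interval was -0.28 to 0.17 and for the nucleotide exchange factor Hsph1 it was -0.19 to 0.38. Dnajb4, a cytosolic partner of HSP70 found in heart and muscle, had the smallest adjusted p of the list: it was at 316.3, 276.7, 275.8 and 295.4 CPM in FA and 220.7, 256.9, 217.8 and 247.7 CPM in DE, all DE libraries below all FA libraries, a log2 fold change of -0.30 (SE 0.10, adjusted p = 0.0849 by edgeR). By DESeq2 its adjusted p was 0.0308 with a log2 fold change of -0.31, a difference below the 25% that a call needs. The transcription factor Hsf1 changed by 0.09 (adjusted p = 0.732) and Hsf2 by -0.24 (adjusted p = 0.250), both by edgeR, and Hsf1 turned to -0.15 within prefix 11. Immediate early genes, a known readout of tissue dissociation, were listed beside them, and the 14 summed to 1969 to 2510 CPM in FA and 1860 to 2630 CPM in DE, with 10 of them higher and 0 called by edgeR (unadjusted p under 0.05 in 1, and 0 by DESeq2).

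**Figure D4:**
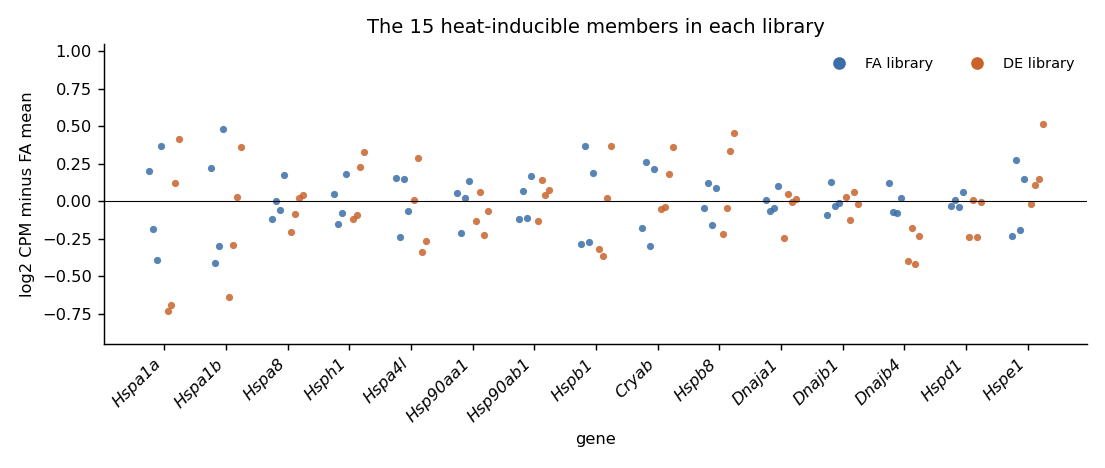
Each point is 1 library (blue FA, orange DE) for the 15 heat-inducible members, as log2 CPM minus the mean of the 4 FA libraries, with the zero line at that mean. FA and DE points overlap for every gene except Dnajb4, and Hspa1a and Hspa1b have the widest spread.

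Windows around the start sites were searched for the letters of the element that HSF1 binds and of the ER stress element. Inverted GAA units stand in the letters GAANNTTC (2 units, which read the same on either strand), and the 3-unit form adds NNGAA after it. The element of the ER stress response is CCAAT and CCACG with 9 free bases between them. RefSeq windows of 250 bases before to 50 after the start on GRCm38.p6 were searched on both strands for 60 of the 75 genes that have one. The 2-unit form was in 16 of the 77 windows of these genes, against 7.86% of all 32851 windows. These windows belong to 14 genes, and 8 of the 14 were among the 11 heat-inducible genes with a window. For Dnajc5g, Hspb8 and Hsph1 every match lay after the start. Elements farther away or with other letters were not searched for, and 15 members had no window. The 3-unit form was in 6 of the 77 windows, of Dnajb6, Hspd1, Hspe1 and Hsph1 (0.603% of all windows), and the ER element in 3, of Hspa5, Hsp90b1 and Dnajc3 (0.119%). Hspd1 and Hspe1 share their start region, since the genes face away from each other and overlap by 112 bp. The sequences below are shown because they hold the known response elements of heat shock and ER stress. Each has 30 bases on either side of 1 match, runs 5′ to 3′ on the strand of the gene, and has every match inside it in capitals. That of Hspb1 holds a second 2-unit match, and in that of Hspe1 a pair of 3-unit matches overlap. The Hspa1a and Hspa1b stretches are identical, and that of Hsp90b1 holds the element on the other strand.
Hspe1 (chr1:55088034-55088106, plus strand): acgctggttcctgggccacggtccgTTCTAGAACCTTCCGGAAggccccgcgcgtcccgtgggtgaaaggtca
Dnajb6 (chr5:29735822-29735894, plus strand): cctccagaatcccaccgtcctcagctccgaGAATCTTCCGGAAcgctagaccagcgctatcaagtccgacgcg
Hspa1a (chr17:34972223-34972290, minus strand): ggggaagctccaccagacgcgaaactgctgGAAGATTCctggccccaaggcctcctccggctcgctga
Hspa1b (chr17:34959305-34959372, minus strand): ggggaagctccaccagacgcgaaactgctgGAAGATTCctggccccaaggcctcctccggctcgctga
Hspb1 (chr5:135887792-135887859, plus strand): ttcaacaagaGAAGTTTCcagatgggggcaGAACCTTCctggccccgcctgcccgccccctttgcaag
Hspa5 (chr2:34771995-34772073, plus strand): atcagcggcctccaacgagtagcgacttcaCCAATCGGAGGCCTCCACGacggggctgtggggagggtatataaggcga
Hsp90b1 (chr10:86705503-86705581, minus strand): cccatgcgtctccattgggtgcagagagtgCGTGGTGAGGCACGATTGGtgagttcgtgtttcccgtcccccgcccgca
Dnajc3 (chr14:118937797-118937875, plus strand): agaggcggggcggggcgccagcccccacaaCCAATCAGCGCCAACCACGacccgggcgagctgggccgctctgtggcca
Of the 13 tested genes with the 2-unit element edgeR called 0 (unadjusted p under 0.05 in 1, Hspb6, and 0 by DESeq2), and of the 3 with the ER element also 0 (unadjusted p under 0.05 in 0, and 0 by DESeq2), with log2 fold changes from -0.53 to 0.25 and from -0.18 to 0.11. Among all tested genes 5.8% were called and 25.6% had an unadjusted p under 0.05. A match of letters is a description of the window and not evidence of binding.

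Chaperones of the ER and of mitochondria are encoded in the nucleus and serve as readouts of stress in these compartments. Of the 9 ER members 3 were higher and 6 lower, and 0 were called by edgeR (unadjusted p under 0.05 in 1, and 0 by DESeq2), against 5.8% called and 25.6% with an unadjusted p under 0.05 among all tested genes. The median log2 fold change was -0.10, and all 9 intervals lay within 1.5-fold either way (54% of all tested genes). Hspa5 (BiP, the ER member of HSP70) was at 786.1, 795.9, 751.5 and 900.3 CPM in FA and 645.5, 778.9, 801.7 and 847.7 CPM in DE, a log2 fold change of -0.07 (95% confidence interval -0.31 to 0.16). Hsp90b1, the ER member of HSP90, changed by 0.11 (-0.11 to 0.33), Dnajb9, a strongly induced co-chaperone of BiP, by -0.10 (-0.36 to 0.16), and Dnajb11 by 0.16 (-0.08 to 0.40). Dnajc3, which also restrains the kinase PERK, changed by -0.18 and Dnajc10, an ER disulfide reductase, by 0.04. Dnajc10 had its highest value, 82.5 CPM, in DE replicate 1 and its lowest, 53.3 CPM, in DE replicate 5.
The mitochondrial list of 10 genes had 5 higher and 5 lower and 1 called, Dnajc28, against 5.8% of all tested genes, with a median of -0.04, and within prefix 11 the split was 2 higher and 8 lower. Hspa9, the motor of protein import, was at 1007, 1007, 974.1 and 1017 CPM in FA and 855.2, 1032, 804.3 and 923.1 CPM in DE, a log2 fold change of -0.15 (-0.36 to 0.07). FA libraries lay close together and DE libraries on either side of them. Hspd1 changed by -0.12 (-0.33 to 0.09) and Hspe1, the lid of the same chaperonin, by 0.19 (-0.13 to 0.51). Dnajc19 and Dnajc15, which start the ATP hydrolysis of the import motor, changed by 0.12 and 0.11, and Dnaja3, a co-chaperone of Hspa9, by -0.25 (SE 0.10, adjusted p = 0.154 by edgeR).

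Levels of the small heat shock proteins varied between libraries of 1 group. The class was set by symbol, so it includes Hspb11, the intraflagellar transport subunit named above. Hspb11 was higher without a call, by 0.50 on the log2 scale over all libraries and 0.23 within prefix 11. With 6 of 9 genes higher and 3 lower, 0 were called by edgeR (unadjusted p under 0.05 in 3, and 0 by DESeq2), against 5.8% called and 25.6% with an unadjusted p under 0.05 among all tested genes. The median log2 fold change was 0.10, and the intervals of 5 of the 9 lay within 1.5-fold either way (54% of all tested genes). Hspb1 was at 164.2, 258.4, 165.5 and 228.1 CPM in FA and 160.2, 155.4, 203.4 and 258.3 CPM in DE. Cryab was at 525.7, 714.0, 482.6 and 690.7 CPM in FA and 573.0, 579.5, 676.3 and 763.0 CPM in DE. In both genes FA replicates 3 and 6 and DE replicates 3 and 5 were the high libraries, so that libraries of the same group differed by more than the groups did. The log2 fold changes were -0.07 for Hspb1 (-0.49 to 0.35) and 0.10 for Cryab (-0.22 to 0.43). Hspb7 was at 1401, 1678, 1263 and 1390 CPM in FA and 1134, 1159, 1260 and 1520 CPM in DE, a log2 fold change of -0.18 (-0.45 to 0.10). Cryab and Hspb2 overlap by 252 bp on opposite strands, and how strand was treated in counting is not stated.
Hspb6 (Hsp20, which relaxes smooth muscle when phosphorylated) had the largest fall in this class. It was at 107.4, 139.6, 101.1 and 167.3 CPM in FA and 76.6, 67.5, 96.9 and 116.4 CPM in DE, a log2 fold change of -0.53 (SE 0.19, adjusted p = 0.122 by edgeR). DE replicate 5 lay inside the FA range, and the other DE libraries were below every FA library. Within prefix 11 the change was -0.84 (adjusted p = 0.0611 by edgeR), and with the prefix as a term it was called at -0.84 (adjusted p = 0.0411 by edgeR). Hspb1 and Hspb7 were at -0.38 (adjusted p = 0.360) and -0.33 (adjusted p = 0.275) within prefix 11, both by edgeR. Hspb3 and Hspb8, with 0.25 and 0.16 over all libraries, were at -0.14 each within prefix 11, and Cryab and Hspb2 also turned from higher to lower, so that 2 of the 9 small heat shock proteins were higher and 7 lower there. Prefix 12 holds only DE libraries and gives no value of its own.

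This pattern of libraries was counted over the family. The highest FA pair was replicates 3 and 6 in 32 of the 69 tested genes, the highest DE pair was replicates 3 and 5 in 32, and both held in 21. Among the small heat shock proteins the counts were 8, 8 and 7 of 9, and among the 25 DNAJC genes 11, 6 and 6. It went with exon length: in the 34 genes shorter than the median of 4027 bp the counts were 23, 22 and 16, and in the 35 others 9, 10 and 5. Libraries also differed in how the level of all tested genes with a known length changed with length. Per doubling of exon length the slope was 0.14, -0.06, 0.13 and -0.01 on the log2 scale in FA replicates 2, 3, 4 and 6 and 0.04, 0.03, -0.12 and -0.15 in DE replicates 1, 7, 3 and 5. In each group the libraries with the lower slopes were those with more RNA of the short small heat shock genes. Small heat shock genes are short, with a median exon length of 1479 bp. Across the groups this order did not hold. FA replicate 2, which had the highest slope, had a small heat shock protein sum of 2341 CPM. DE replicates 1 and 7, with lower slopes, had less, at 2090 and 2119 CPM. What sets a library's slope or its small heat shock protein level was not tested. When each library's trend with length was removed, a setting chosen after seeing the data, Hspb6 (-0.65, adjusted p = 0.0226 by edgeR) and Dnajc16 (-0.34, adjusted p = 0.0336 by edgeR) were called beside the 4 genes above, Cryab and Hspb2 turned to -0.06 and -0.10, and 9.46% of all 13851 genes fitted were called.

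**Figure D5:**
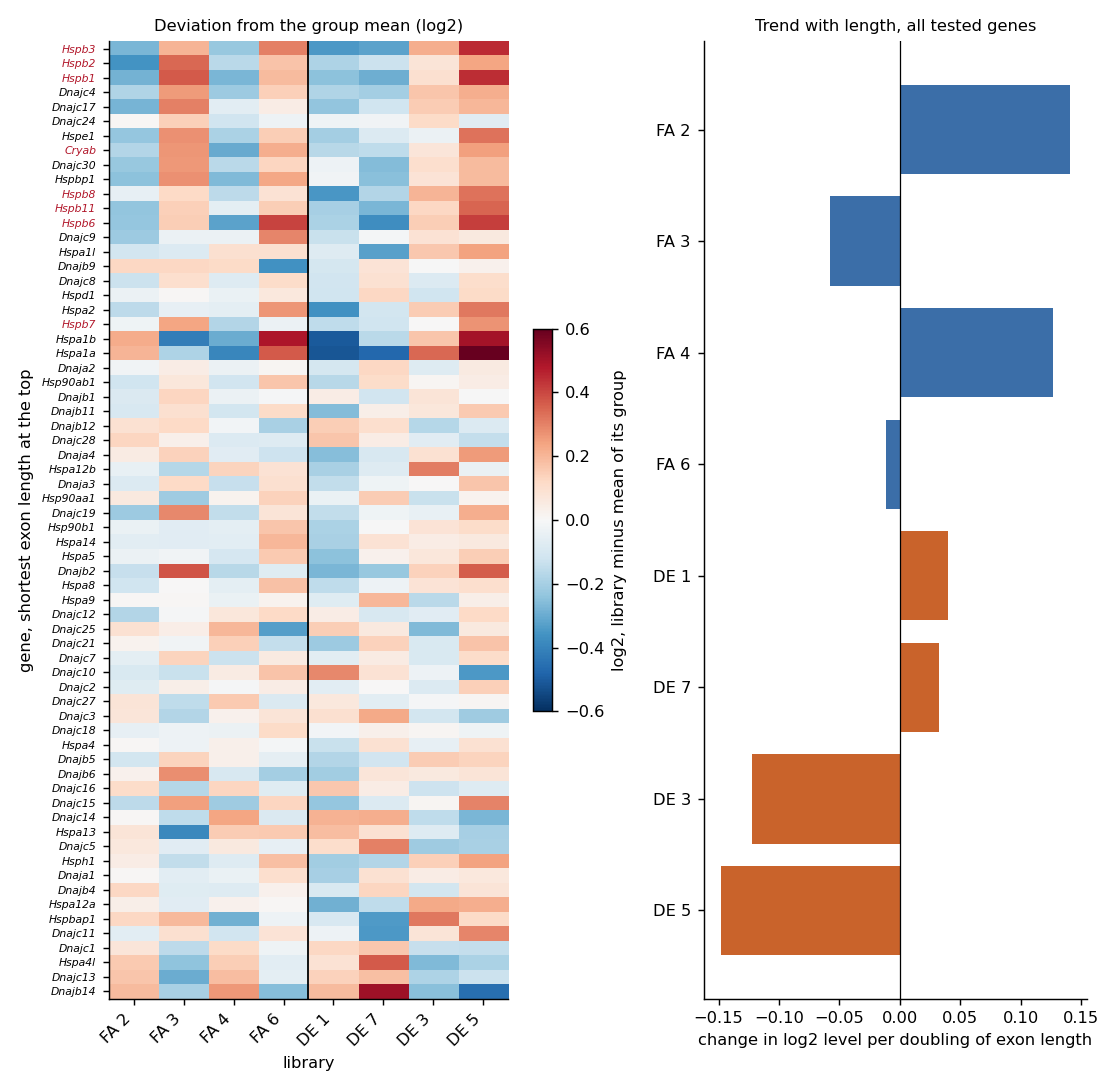
Left, the log2 deviation of each library from the mean of its own group for the 66 tested genes that averaged 1 CPM or more, sorted by exon length with the shortest at the top and the small heat shock proteins named in red (colours end at 0.6, which 1 value passes). Right, the slope of each library's log2 level with exon length over the 13851 tested genes with a known length (blue FA, orange DE). FA replicates 3 and 6 and DE replicates 3 and 5 are mostly red in the upper rows and have the lower slopes of their groups.

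The rest of the folding machinery was described by 83 genes outside the family, namely HSF regulators, HSP70 and HSP90 partners, the CCT chaperonin with prefoldin, ER folding factors and mitochondrial proteases. Of the 81 tested, 44 were higher and 37 lower (median log2 fold change 0.04), and 3 (1 higher and 2 lower) were called, against 5.8% of all tested genes. Fkbp5, an HSP90 co-chaperone that glucocorticoids induce, was at 17.7, 25.3, 22.4 and 21.7 CPM in FA and 77.9, 55.4, 35.5 and 31.6 CPM in DE, a log2 fold change of 1.20 (SE 0.25, adjusted p = 0.0231 by edgeR). DE replicates 1 and 7 had the highest values and no DE library reached down to FA. The call was lost without FA replicate 2 (adjusted p = 0.0832 by edgeR) or FA replicate 4 (adjusted p = 0.0690 by edgeR). Chordc1, another HSP90 partner, fell from 38.1 ± 2.51 to 29.2 ± 1.81 CPM (mean ± SD, 4 libraries per group) with an adjusted p of 0.0374 by edgeR, and Tomm70a, the mitochondrial import receptor that docks HSP70 and HSP90, from 176.8 ± 10.5 to 138.3 ± 9.79 CPM with an adjusted p of 0.0486 by edgeR. Their log2 fold changes were -0.39 and -0.35. Without any one of the 8 libraries, the adjusted p was above 0.05 for both genes. The 14 tested CCT and prefoldin genes had 10 higher, 4 lower and 0 called (unadjusted p under 0.05 in 0, and 0 by DESeq2), with 14 intervals within 1.5-fold either way. The 16 ER folding factors had 8 higher and 8 lower with 0 called by edgeR (unadjusted p under 0.05 in 4), of which Pdia6 was called by DESeq2. The 8 mitochondrial proteases had 2 higher and 6 lower with 0 called (unadjusted p under 0.05 in 2, and 0 by DESeq2), which for lists of these sizes is also read against the 5.8% called among all tested genes.

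Of the 75 genes, 6 had too few counts for the filter. Dnajc5g had 1 count over the 8 libraries, Dnajb8 2, Dnajb7 14, Dnajc5b 37, Dnajc22 51 and Dnajb13 84, and none of them was called in the edgeR fit without a filter, with adjusted p-values from 0.356 to 0.890. DESeq2 gave an adjusted p for Dnajb13 alone (0.352). Just inside the filter were Dnajb3 with 109, Dnajc6 with 111 and Hspb9 with 184 counts. Hspb9, known from testis, was at 0.535 to 0.747 CPM in FA and 0.823 to 1.12 CPM in DE, and Dnajc6, the neuronal auxilin, at 0.246 to 0.749 and 0.200 to 0.717 CPM. The intervals of all 3 reached beyond 1.5-fold. Opposite-strand overlaps make Dnaja4 (1581 bp with Wdr61) and Hspa1l (1778 bp with Gm10501) uncertain as well.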

How the data were processed

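NCM RNA from 8 male neonates, 4 FA and 4 DE, was sequenced after poly-A selection with a stranded kit. The authors aligned reads with Tophat to mm10 and an Ensembl transcriptome, marked duplicates without removing them, and deposited raw counts per Entrez gene from featureCounts. For the counting step, the strand setting, the gene annotation and the treatment of fragments that map to several places are not given in the sources used here, which leaves counts of paralogs and overlapping genes uncertain. Whether the marked duplicates were counted is not given either. If they were, precision from counting could be overstated, which was not tested. The study's methods state n = 3 a group. All 8 libraries were used.

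Of 27179 genes, 25275 matched a symbol in a RefSeq table of GRCm38.p6 and 1904 did not. Genes passed filterByExpr (minimum 10 counts), were scaled by TMM, and the exposure effect was tested without covariates in edgeR 4.0.16 (quasi-likelihood F-test, R 4.3.3). P-values were adjusted over all 14966 genes by Benjamini-Hochberg. Called means a fold difference of at least 1.25 with an adjusted p up to 0.05, the study's thresholds. Exon lengths came from GENCODE M21. Libraries of a group were no copies of each other (chi-square of 5.06 per gene for the closest, FA replicates 2 and 4). The code was tested on simulated data.

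Named genes were all called members, those of highest RPKM in each class, the 5 largest rises and falls at 1 CPM or more, and the listed heat-inducible, ER, mitochondrial and small heat shock members. The members and lists were chosen with earlier results of these data known. Alternatives were DESeq2 1.42.0, the likelihood ratio test, the 25% difference built into the test, other scaling, other filters, the name prefix, libraries left out, and length offsets (splines with 5 degrees of freedom) added after seeing the data.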

Additional observations from a re-analysis of the deposited data

Results flagged for a closer look

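Of 100 sets of 4 libraries of 1 group, for the chaperones and others named above, 3 had a library that stood apart from the other 3 by Dixon's criterion at the 95% level, and chance alone flags about 1 in 20 sets. All 3 concerned FA replicate 6. Dnajb9 was at 73.3 CPM there and at 102.2 to 103.0 CPM in the other FA libraries. Hsp90b1 was at 602.8 CPM there against 512.9 to 522.9 CPM. Hspa14 was at 32.3 CPM there against 26.9 to 27.0 CPM, and without this library its log2 fold change was 0.48 (adjusted p = 0.0332 by edgeR) in place of 0.41.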

How the results depend on the processing

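No paired analysis was made, because no label links an FA animal to a DE animal. The count of called chaperones was 1 with the 25% difference built into the test or within prefix 11, and 1 to 5 with single libraries left out, and Dnajc28 was called in all 19 alternatives, while Dnajb5 and Dnajc9 were called in 11 and Hspa14 in 9. Over all genes, 868 calls became 1628 with DESeq2, 1603 with the likelihood ratio test, 114 with the 25% difference in the test, 448 with the prefix as a term, 260 within prefix 11, 1310 with the length trend removed, and 237 (without FA replicate 4) to 1168 (without DE replicate 1) with single libraries left out. Scaling by library totals raised the share of calls that were higher from 61.8% to 78.7%, and the 25% difference in the test lowered it to 38.6%. The 3 calls among other proteostasis genes became 5 with DESeq2 or the likelihood ratio test, 0 with the 25% difference in the test, 1 with no filter, the prefix as a term or prefix 11 alone, and 0 to 5 with single libraries left out. The median level of the family was 10.57 RPKM by the longest transcript. Causes were not tested.

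Some of the genes chosen by the naming rules above, and Hsf1, changed sign, none of them called in either direction. Dnajb6 and Dnajc2, mentioned for other reasons, also changed sign. Dnajb6 was at 0.014 with the length trend removed. Dnajc2 was at -0.025 with the prefix as a term and at -0.030 within prefix 11. With the prefix as a term the log2 fold changes were -0.066 for Cryab, -0.057 for Dnajc15, -0.086 for Dnajc30, -0.17 for Dnajc4, -0.14 for Hsf1, 0.15 for Hspa4l, -0.078 for Hspb2, -0.13 for Hspb3, -0.13 for Hspb8, -0.013 for Hspbp1 and -0.11 for Hsph1. Within prefix 11, in the same order, they were -0.071, -0.062, -0.092, -0.18, -0.15, 0.14, -0.083, -0.14, -0.14, -0.018 and -0.12. With the length trend removed they were -0.059 for Cryab, 0.062 for Dnaja1, -0.096 for Dnajc30, -0.15 for Dnajc4, -0.045 for Hsp90ab1, 0.088 for Hspa4l, -0.096 for Hspb2, 0.027 for Hspbap1 and -0.013 for Hspbp1. With library totals they were 0.028 for Dnaja1, 0.061 for Dnajb1, 0.0014 for Hspa4l, 0.013 for Hspa8 and 0.0018 for Hspb1. With single libraries left out the ranges were -0.080 to 0.017 for Dnaja1, -0.042 to 0.032 for Dnajb1, -0.069 to 0.14 for Dnajc10, -0.016 to 0.15 for Dnajc30, -0.040 to 0.12 for Dnajc4, -0.028 to 0.17 for Hsf1, -0.015 to 0.087 for Hsp90ab1, -0.33 to 0.042 for Hspa1b, -0.21 to 0.016 for Hspa4l, -0.098 to 0.0029 for Hspa8, -0.24 to 0.062 for Hspb1 and -0.020 to 0.21 for Hspb2.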
